A study of Homo sapiens with 18 samples.

Results

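The salt-inducible kinases SIK1, SIK2 and SIK3 and the serum and glucocorticoid-regulated kinases SGK1, SGK2 and SGK3 were followed across the RNA-Seq libraries of the study. These 6 genes were taken by name out of 34286 genes with a transcript in the count file, and all 6 were among the 15529 genes that passed the filter on low counts. SIK1B, a near-identical duplicate of SIK1 that the annotation holds as a gene of its own, was added to SIK1.

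SIKs belong to the AMPK-related kinases that LKB1 switches on. They phosphorylate the CRTC coactivators of CREB and the class IIa histone deacetylases, which keeps these proteins out of the nucleus, and PKA, the kinase that cAMP activates, phosphorylates SIKs and blocks that action. SGKs are AGC kinases close to AKT that need mTORC2 and PDK1 for activity and act on the ubiquitin ligase NEDD4L, on FOXO factors and on NDRG1. SIK1 and SGK1 are known as rapidly inducible genes, SIK1 as a target of CREB and SGK1 as a target of serum and glucocorticoid.

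The cells were HEK293, a human embryonic kidney line, in 3 forms, wildtype cells and the β-arrestin1/2 KO and the Gαs KO line, both KO lines made with CRISPR-Cas9. All groups, controls included, carried a transfected β2AR plasmid, were serum starved overnight, and received vehicle (basal) or 1 μM isoproterenol, an agonist of β-adrenergic receptors, for 1 h, starting 48 h after transfection. With 3 biological replicates in each of 6 groups, there were 18 libraries. Gαs couples the receptor to cAMP production and β-arrestins bind the activated receptor, so the groups ask which of these proteins the change of a gene depends on. Each KO is represented by 1 line, so a difference of that line from wildtype cells that is unrelated to the deleted gene cannot be told apart from the KO. In bulk RNA, fewer cells that express a gene and less RNA per cell cannot be told apart either.

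Levels are given in CPM, the summed transcript counts of a gene per 1000000 counts of the library after TMM scaling, a correction for composition. Totals per library ran from 17908597 to 25019834 counts. GNAS, the gene of Gαs, had 1314 ± 376 CPM (mean ± SD, n = 3) in basal wildtype cells and 65.9 ± 5.08 in basal Gαs KO cells. ARRB2, encoding β-arrestin2, had 98.6 ± 28.3 CPM in basal wildtype and 20.9 ± 2.61 in basal β-arrestin1/2 KO cells, whereas ARRB1, encoding β-arrestin1, had 49.4 ± 13.9 and 41.2 ± 3.00, so the transcript level of ARRB1 did not separate the lines. Of 9 markers of blood, endothelial, liver, fibroblast and epithelial cells, 2 (CD74 and COL1A1) passed the filter, and 6 of 6 HEK293 markers did. Wildtype basal replicate 1 stood apart: the median gene departed by 0.578 on the log2 scale from the mean of the other libraries of its group, against 0.362 and 0.256 for wildtype basal replicates 2 and 3 and 0.0829 to 0.127 for the other 15 libraries. Wildtype basal replicates 2 and 3 are set there against a mean that includes replicate 1. For pairs of libraries, the squared count difference relative to sampling noise (chi-square per gene) was also taken. It was 8.47 between replicates 2 and 3, against 123 and 96.3 for their pairs with replicate 1 and 3.91 to 13.1 in the other groups. Member results that rest on basal wildtype cells are therefore followed by their values without wildtype basal replicate 1.

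In wildtype cells, isoproterenol raised SIK1 4.81-fold and SGK1 1.91-fold. In β-arrestin1/2 KO cells the same pair rose, SIK1 9.18-fold and SGK1 2.24-fold. Neither was called in Gαs KO cells, with folds of 0.99 and 0.95. SIK2, SIK3, SGK2 and SGK3 were not called as responding in any of the lines. By edgeR's quasi-likelihood test at an adjusted p under 0.05, 2 of the 6 genes were thus called in the wildtype response, where 0.464% of all genes tested were called, and 2 of 6 in the β-arrestin1/2 KO response, where 1.11% were. Because the 6 genes were chosen with earlier results of these data known, these counts do not test the set. None of the 6 was called in Gαs KO cells, where 0% of all genes were called (166 genes had an unadjusted p under 0.05, and DESeq2's Wald test called 8 genes). Without wildtype basal replicate 1 the members called were again SIK1 and SGK1 in both lines, against backgrounds of 1.08% and 11.7%, and the wildtype log2 fold changes were 2.32 for SIK1 and 0.91 for SGK1.

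**Figure D1:**
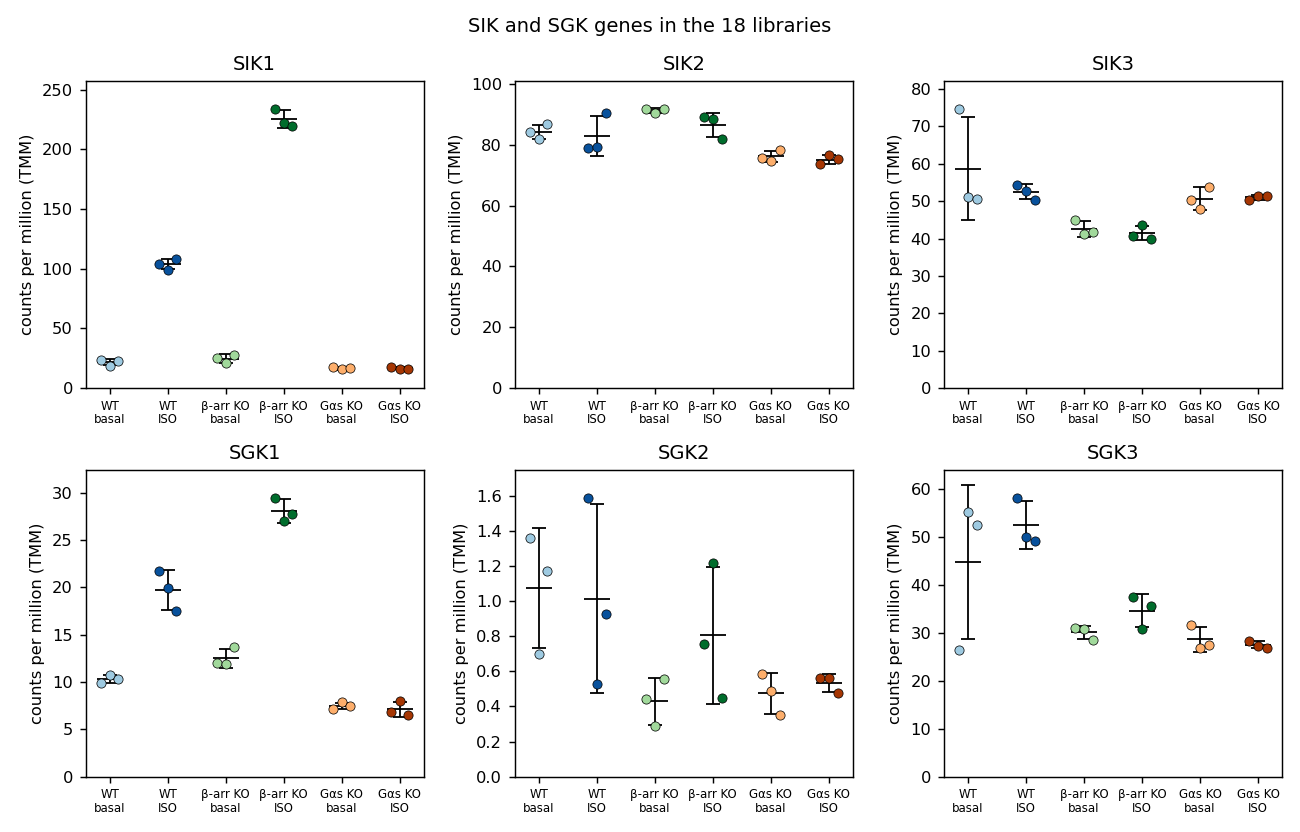
Level of the 6 genes in CPM (TMM scaling) on a linear axis from 0, 1 point per library, with the mean and SD of each group of 3. SIK1 and SGK1 were high in the isoproterenol libraries of the wildtype and the β-arrestin1/2 KO line, and wildtype basal replicate 1 lay far from replicates 2 and 3 in SIK3 (74.7 against 51 and 50.5 CPM) and SGK3 (26.3 against 55.2 and 52.5 CPM).

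SIK1 (ENSG00000142178) lies on chromosome 21 from 43414483 to 43427189 on the minus strand of GRCh38, and SIK1B (ENSG00000275993) on the plus strand from 6111134 to 6123739 of the same chromosome. SIK1 had 23.3, 18.7 and 22.9 CPM in basal wildtype cells and 104, 99.3 and 108 CPM after isoproterenol. In β-arrestin1/2 KO cells it went from 25.3, 20.8 and 27.6 CPM to 234, 222 and 219.8 CPM. In Gαs KO cells it had 17.9, 15.6 and 16.3 CPM at basal and 17.4, 16 and 15.8 CPM after isoproterenol. The stimulated and basal libraries did not overlap in the wildtype or the β-arrestin1/2 KO line, and overlapped in the Gαs KO line. The log2 fold change was 2.27 (95% confidence interval 2.04 to 2.49, adjusted p = 2.1e-09) in wildtype cells, 3.20 (2.97 to 3.43, adjusted p = 1.4e-11) in β-arrestin1/2 KO cells and -0.02 (-0.25 to 0.21, adjusted p = 1) in Gαs KO cells.

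The size of the SIK1 response differed between the lines. By a test of the difference between the log2 fold changes, the response was larger in β-arrestin1/2 KO than in wildtype cells by 0.93 on the log2 scale (0.63 to 1.24, adjusted p = 0.0095), a ratio of folds of 1.91. SIK1 was the only member called in that difference, where 0.174% of all genes were called, and 8.24% without wildtype basal replicate 1. In Gαs KO cells the response was smaller than in wildtype cells by a difference of -2.28 (-2.60 to -1.97, adjusted p = 3.4e-07), and of -2.34 (adjusted p = 3.3e-08) without wildtype basal replicate 1. SIK1 and SGK1 were the 2 members called there, against 0.155% of genes, or 0.405% without that library. Between the KO lines, the same 2 members differed, against 0.380% of genes (2.62% without that library), with a SIK1 difference of 3.22 (2.90 to 3.54, adjusted p = 1.9e-09). The first of these SIK1 differences, without wildtype basal replicate 1, was 0.89 (adjusted p = 0.0016). A fit restricted to the 4 groups in question gave 0.94 (adjusted p = 0.11), which was not called.

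The counts of SIK1 were divided by the quantification between SIK1 and SIK1B, and the division is uncertain because the copies are near-identical. SIK1B received between 30.4 and 60.2% of the summed counts, with a median of 39.4%, and the highest share was in wildtype basal replicate 1. Each copy taken alone rose in the wildtype line (log2 fold change 2.45 for SIK1 and 2.00 for SIK1B) and in the β-arrestin1/2 KO line (3.20 and 3.21), all called. Because reads of near-identical copies are divided between them, these calls are not independent and do not show that both genes respond. The gain of the β-arrestin1/2 KO response over the wildtype one was 0.75 for SIK1 alone (adjusted p = 0.39) and 1.21 for SIK1B alone (adjusted p = 0.25), neither called. Within SIK1, nearly all counts went to the transcript SIK1-201, with a share of 95.1% or more in each library.

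The region upstream of SIK1 is shown because the gene had the largest response of the 6 and CREB, the factor that cAMP signalling acts on, is known to bind the full cAMP response element TGACGTCA and its short form TGACG. The sequences are from RefSeq (GRCh38.p14), 5′ to 3′ on the strand of the gene, in lower case with each short form on either strand (TGACG or CGTCA) in capitals, and end 1 base before the first start of RefSeq or GENCODE. SIK1 is at chr21:43427190-43427381 (minus strand), SIK2 at chr11:111602199-111602390 (plus strand), SIK3 at chr11:117098438-117098678 (minus strand) and SGK1 at chr6:134174897-134175116 (minus strand), which is the most used of the SGK1 starts.
SIK1: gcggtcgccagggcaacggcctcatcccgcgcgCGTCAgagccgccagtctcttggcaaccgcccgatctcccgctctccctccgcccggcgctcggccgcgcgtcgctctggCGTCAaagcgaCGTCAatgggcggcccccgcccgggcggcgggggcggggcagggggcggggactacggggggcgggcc
SIK2: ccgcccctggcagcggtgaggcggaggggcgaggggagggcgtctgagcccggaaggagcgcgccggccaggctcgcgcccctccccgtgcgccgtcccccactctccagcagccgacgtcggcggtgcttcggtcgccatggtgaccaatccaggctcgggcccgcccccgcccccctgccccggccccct
SIK3: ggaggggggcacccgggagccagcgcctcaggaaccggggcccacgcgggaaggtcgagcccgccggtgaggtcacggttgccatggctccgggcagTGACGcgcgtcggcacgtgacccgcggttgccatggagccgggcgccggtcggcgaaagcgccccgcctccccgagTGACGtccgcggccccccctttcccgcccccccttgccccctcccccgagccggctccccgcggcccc
SGK1: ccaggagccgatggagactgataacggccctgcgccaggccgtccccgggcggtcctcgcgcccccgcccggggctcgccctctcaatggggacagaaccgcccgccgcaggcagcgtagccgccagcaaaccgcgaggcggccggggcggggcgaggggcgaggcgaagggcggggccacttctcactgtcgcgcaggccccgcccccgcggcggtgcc
The SIK1 sequence held 3 short forms, which began 217, 137 and 126 bases before the RefSeq start, and SIK3 held 2, at 153 and 77 bases. SIK2 and SGK1 held none in the bases shown. None of these sequences held the full element. Counted over the 250 bases before the RefSeq start of all 35116 windows of 27305 genes, 21.2% held at least 1 short form, 4.76% at least 2, 1.01% at least 3 and 1.65% the full element. In that same window SIK1 held 3, SIK3 held 2 and SIK2 held 2, the latter downstream of its GENCODE start. SGK1, which rose, held none, and SIK2 and SIK3, which held 2 each, were not called as responding. Whether any of these motifs is bound or bears on a response was not tested.

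SGK1 (ENSG00000118515) lies on chromosome 6 from 134169246 to 134318112, on the minus strand. It had 9.87, 10.7 and 10.3 CPM in basal wildtype cells and 21.7, 19.9 and 17.5 CPM after isoproterenol. In β-arrestin1/2 KO cells it went from 12, 11.9 and 13.7 CPM to 29.5, 27 and 27.8 CPM. Its Gαs KO libraries had 7.17, 7.85 and 7.46 CPM at basal and 6.84, 8.02 and 6.53 CPM after isoproterenol. Stimulated and basal libraries were apart in the wildtype and the β-arrestin1/2 KO line and overlapped in the Gαs KO line. The log2 fold change was 0.94 (0.71 to 1.17, adjusted p = 1.6e-04) in wildtype, 1.16 (0.93 to 1.39, adjusted p = 6.4e-06) in β-arrestin1/2 KO and -0.07 (-0.31 to 0.17, adjusted p = 1) in Gαs KO cells.

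For SGK1 the response of β-arrestin1/2 KO cells exceeded that of wildtype cells by 0.22 on the log2 scale, with an interval of -0.10 to 0.55 (adjusted p = 1), so a difference of the size seen for SIK1 (0.93) lies outside the interval. The response of Gαs KO cells differed from the wildtype one by -1.01 (-1.34 to -0.68, adjusted p = 0.0075) and that of β-arrestin1/2 KO cells from the Gαs KO one by 1.23 (0.90 to 1.56, adjusted p = 4.3e-04). A fit restricted to the groups in question ended the wildtype response (log2 fold change 0.93, adjusted p = 0.24) and the difference of the Gαs KO from the wildtype response (-1.01, adjusted p = 0.10). Both were called without wildtype basal replicate 1, at 0.91 (adjusted p = 2.5e-04) and -0.98 (adjusted p = 0.0051).

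**Figure D2:**
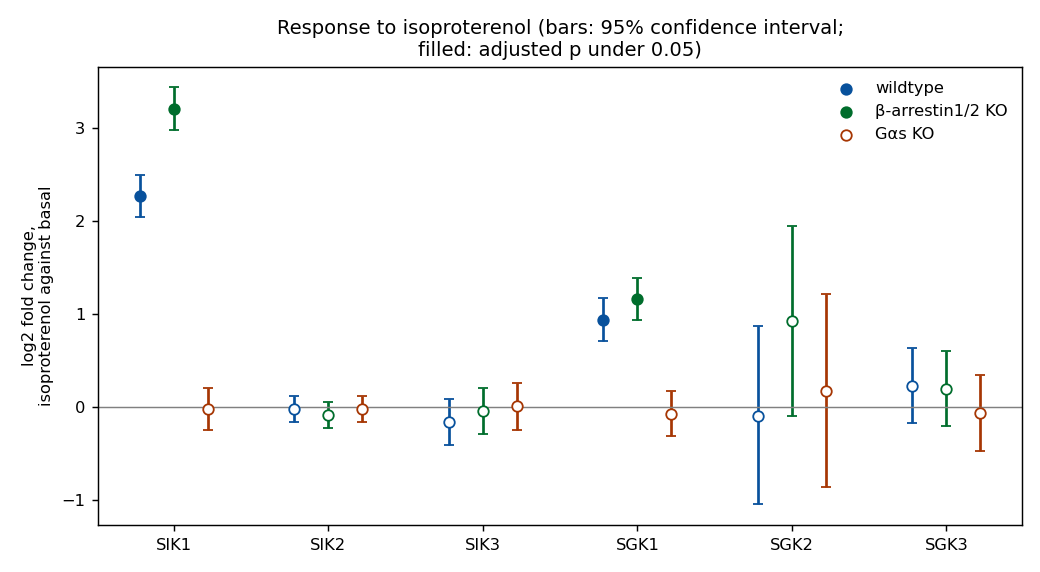
Log2 fold change of the 6 genes, isoproterenol against basal, in each of the 3 cell lines, with 95% confidence intervals from edgeR's quasi-likelihood fit (filled points, adjusted p under 0.05). SIK1 reached 2.27 and 3.20 and SGK1 0.94 and 1.16 in the wildtype and the β-arrestin1/2 KO line, and every Gαs KO interval included 0.

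SGK1 has 30 annotated transcripts, all 30 in the count file, and 9 of them reached 10 counts in a library. SGK1-201 (ENST00000237305), which starts at 134174896 and has a length of 2401 bases, received a median of 85% of the counts of the gene. It had 65.9, 162 and 134 expected counts in basal wildtype cells and 311, 305 and 294 after isoproterenol, and 198, 240.5 and 223 against 503, 455 and 392 in β-arrestin1/2 KO cells. Its Gαs KO libraries had 138, 152 and 154 at basal and 113, 132 and 84.1 after isoproterenol. Basal and stimulated libraries were apart in the wildtype and the β-arrestin1/2 KO line, and in Gαs KO cells every stimulated library was below every basal one in these counts, which are not scaled for depth. The total counts of the Gαs KO libraries were likewise all lower after isoproterenol (20686197, 20616017 and 17908597) than at basal (21603427, 21683592 and 24182597). No fall of SGK1-201 can therefore be read from that order.

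Tested among all transcripts, SGK1-201 had a log2 fold change of 1.27 (standard error 0.29, adjusted p = 0.23) in wildtype, 1.12 (0.29, adjusted p = 0.28) in β-arrestin1/2 KO and -0.27 (0.28, adjusted p = 1) in Gαs KO cells, none of them called. Of the 22 member transcripts tested, SIK1-201 and SIK1B-201 were called in the wildtype response (0.0902% of all transcripts were) and in the β-arrestin1/2 KO response (0.193%), and none in the Gαs KO response (0.00328%). SIK1-201 and SIK1B-201 belong to near-identical copies, so their calls are not independent. Without wildtype basal replicate 1, SGK1-201 was called too, at 0.93 in wildtype cells (standard error 0.16, adjusted p = 0.041, background 0.183%) and at 1.12 in the β-arrestin1/2 KO line (standard error 0.14, adjusted p = 0.0016, background 0.835%). Its response there exceeded the Gαs KO one by 1.38 (adjusted p = 0.0093, background 0.190%). That library divided the SGK1 counts in a way of its own: SGK1-201 had 36.2%, SGK1-223 (start 134177905) 38.5% and SGK1-211 25.3%, while SGK1-223 was under 1 count in the other 17 libraries. The 4 transcripts with the most distant start, at 134318112, had at most 5.07 counts together in a library.

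**Figure D3:**
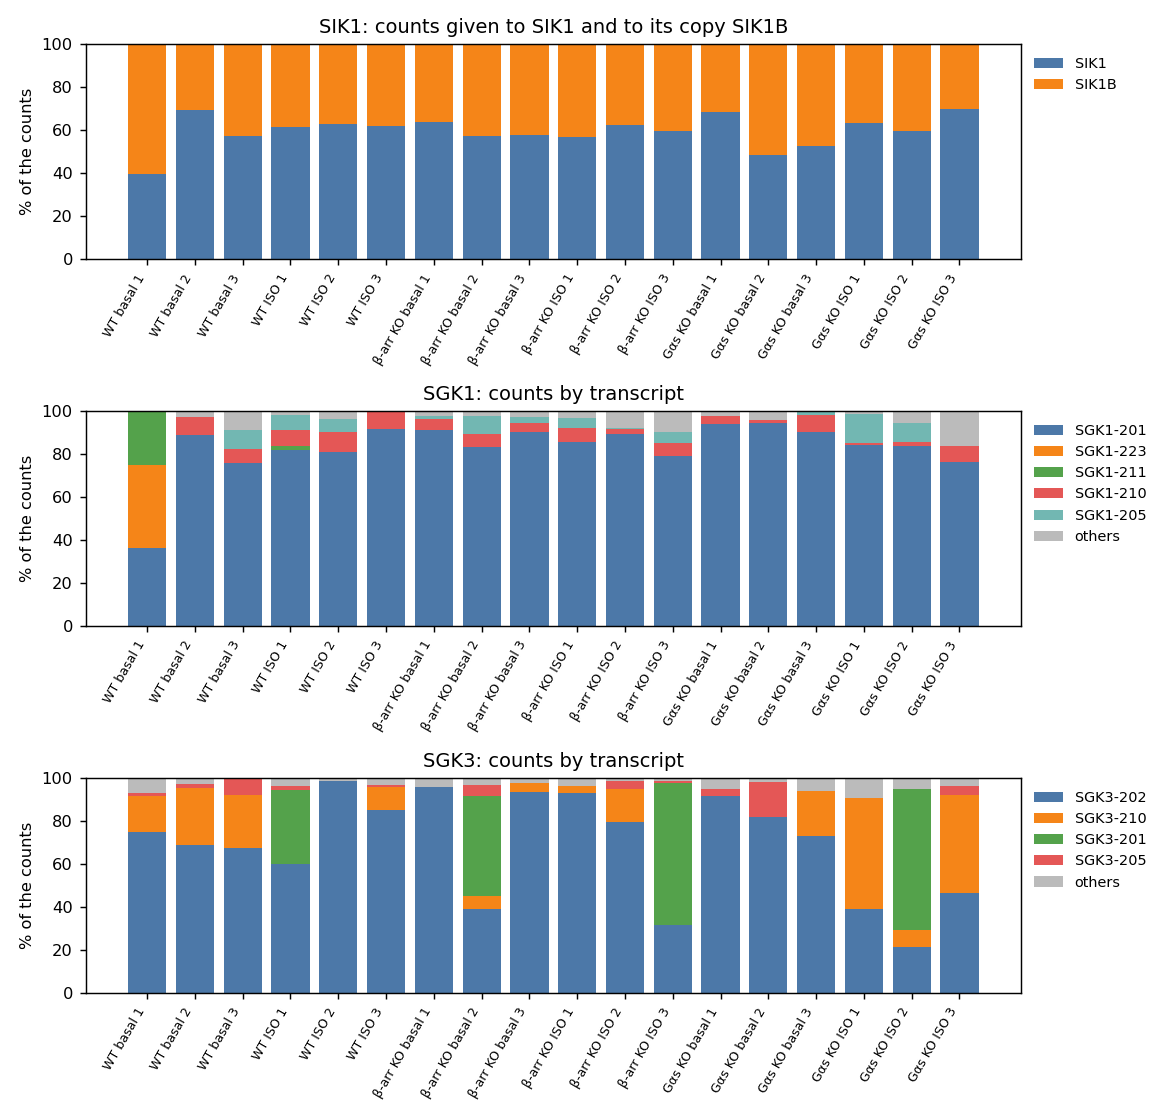
Percent of the expected counts, per library, that went to SIK1 and SIK1B (top), to the transcripts of SGK1 (middle) and to those of SGK3 (bottom). SGK1-201 led in all libraries except wildtype basal replicate 1, where SGK1-223 had 38.5% and SGK1-201 36.2%, and the SGK3 shares changed from library to library, SGK3-201 being under 1 count in 14 of 18.

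SIK2 (ENSG00000170145, chromosome 11, 111602391 to 111730853, plus strand) was the steadiest of the 6. It had 84.1, 81.8 and 86.7 CPM in basal wildtype cells and 78.9, 79.4 and 90.4 CPM after isoproterenol, so the groups overlapped. In β-arrestin1/2 KO cells it had 91.8, 90.4 and 91.7 CPM at basal and 89, 88.6 and 81.9 CPM after isoproterenol. Every stimulated library there lay below every basal one, though edgeR's quasi-likelihood test did not call the response (adjusted p = 0.81). Gαs KO cells had 75.7, 74.6 and 78.3 CPM at basal and 73.6, 76.5 and 75.2 CPM after isoproterenol, with overlap. The log2 fold change was -0.02 (-0.16 to 0.12) in wildtype, and -0.02 without wildtype basal replicate 1, -0.08 (-0.22 to 0.06) in β-arrestin1/2 KO and -0.02 (-0.16 to 0.12) in Gαs KO cells, so the intervals reach a rise of at most 0.12 on that scale.

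SIK3 (ENSG00000160584, chromosome 11, 116843402 to 117098437, minus strand) had 74.7, 51 and 50.5 CPM in basal wildtype cells, the first of them the library that stood apart, and 54.4, 52.7 and 50.4 CPM after isoproterenol. It had 45, 41.1 and 41.7 CPM and then 40.8, 43.6 and 40 CPM in β-arrestin1/2 KO cells, and 50.2, 47.8 and 53.9 CPM and then 50.3, 51.5 and 51.3 CPM in Gαs KO cells. Basal and stimulated libraries overlapped in each line. The log2 fold change was -0.16 (-0.41 to 0.09) in wildtype, and 0.05 (adjusted p = 0.8) without wildtype basal replicate 1, -0.04 in β-arrestin1/2 KO and 0.01 in Gαs KO cells.

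SGK3 (ENSG00000104205, chromosome 8, 66667596 to 66862022, plus strand), the member with a PX domain that binds endosomal phosphoinositides, had 26.3, 55.2 and 52.5 CPM in basal wildtype cells and 58.1, 50 and 49 CPM after isoproterenol. It had 31, 30.7 and 28.4 CPM and then 37.4, 30.7 and 35.5 CPM in β-arrestin1/2 KO cells, and 31.6, 26.8 and 27.5 CPM and then 28.2, 27.3 and 26.8 CPM in Gαs KO cells. The low wildtype value was again replicate 1. The log2 fold change was 0.23 (-0.17 to 0.63, adjusted p = 0.61) in wildtype cells, and -0.04 (adjusted p = 0.89) without that library, 0.20 (-0.20 to 0.60, adjusted p = 0.83) in β-arrestin1/2 KO cells and -0.06 in Gαs KO cells.

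SGK2 (ENSG00000101049, chromosome 20, 43558968 to 43588237, plus strand) was close to the limit of the data, with 7 to 28 counts per library. It had 1.36, 0.698 and 1.17 CPM in basal wildtype cells and 1.59, 0.529 and 0.926 CPM after isoproterenol. In β-arrestin1/2 KO cells it had 0.443, 0.289 and 0.554 CPM and then 0.753, 1.22 and 0.446 CPM, a log2 fold change of 0.92 with an interval of -0.10 to 1.94 (adjusted p = 0.66), and the groups overlapped. The log2 fold change was -0.09 (-1.04 to 0.87) in wildtype cells, and 0.12 (adjusted p = 0.95) without wildtype basal replicate 1, and 0.17 (-0.86 to 1.21) in Gαs KO cells. The intervals of both KO lines include a doubling and no change.

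Basal levels also differed between the lines, as they did for a large part of all genes. In the β-arrestin1/2 KO line 3 of 6 members (SIK3, SGK3 and SGK2) were called against wildtype, all lower, where 33.6% of all genes were called and 17.5% were lower. In the Gαs KO line 3 of 6 (SIK1, SGK1 and SGK3) were called against wildtype, all lower, where 31.4% were called and 17.2% were lower. Set against the Gαs KO line, the β-arrestin1/2 KO line had 3 of 6 members higher (SIK1, SGK1 and SIK2), where 26.2% were called and 14.3% were higher. Without wildtype basal replicate 1 the members called numbered 2, 4 and 4, against 46.7%, 45.9% and 45.2%. With 6 members and backgrounds this high, the counts are not a result about the members, and the values of each follow. All these comparisons share their basal libraries with the responses above.

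SGK1 and SIK1 were lower in basal Gαs KO cells than in basal wildtype cells, with log2 values of -0.46 (adjusted p = 0.0051) and -0.38 (adjusted p = 0.013), with no overlap between the groups. Leaving out wildtype basal replicate 1 gave -0.49 (adjusted p = 0.0026) and -0.33 (adjusted p = 0.020). Both were higher in basal β-arrestin1/2 KO than in basal Gαs KO cells, SGK1 by 0.74 (adjusted p = 9.0e-05) and SIK1 by 0.56 (adjusted p = 8.4e-04). Against wildtype cells, the basal difference of the β-arrestin1/2 KO line was 0.29 for SGK1 (adjusted p = 0.053) and 0.18 for SIK1 (adjusted p = 0.20), neither called, and 0.26 and 0.23 without that library, again not called. The SIK1 difference of the Gαs KO line from wildtype was not called without Gαs KO basal replicate 2 (adjusted p = 0.058), with SIK1 and SIK1B taken apart (adjusted p = 0.17 and 0.16) or in the restricted fit (adjusted p = 0.15), and the SGK1 difference was not called in the restricted fit (adjusted p = 0.10).

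SGK3 was lower at basal in β-arrestin1/2 KO cells by -0.57 (adjusted p = 0.029) and in Gαs KO cells by -0.64 (adjusted p = 0.017) relative to wildtype cells. The differences were larger without wildtype basal replicate 1, at -0.84 (adjusted p = 1.0e-06) and -0.91 (adjusted p = 4.0e-07). With that library kept, the first lost its call without wildtype basal replicate 2 or 3 or any of the 3 β-arrestin1/2 KO basal libraries (-0.39 without wildtype basal replicate 2, adjusted p = 0.12), and the second without wildtype basal replicate 2 or 3 or Gαs KO basal replicate 2 or 3 (-0.46 without wildtype basal replicate 2, adjusted p = 0.073). SIK3 was lower at basal in β-arrestin1/2 KO than in wildtype cells by -0.46 (adjusted p = 0.0065), and by -0.26 (adjusted p = 0.0031) without that library. The Gαs KO line did not differ detectably from wildtype cells in SIK3 (-0.22, adjusted p = 0.18, and -0.01 without the library). SGK2 was lower in β-arrestin1/2 KO cells by -1.33 (adjusted p = 0.042), which was called in 6 of 18 fits that left out a library, and without wildtype basal replicate 1 the difference was -1.13 (adjusted p = 0.098). SIK2 was higher in β-arrestin1/2 KO than in Gαs KO cells by 0.26 (adjusted p = 0.0084).

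The comparison of stimulated cells does not use wildtype basal replicate 1 as one of its groups. After isoproterenol, 2 of 6 members were higher and 2 lower in the β-arrestin1/2 KO line than in wildtype cells, where 30.0% of all genes were called, 14.3% higher and 15.7% lower. In the Gαs KO line 3 of 6 were lower, where 30.0% were called and 15.9% were lower. Without wildtype basal replicate 1 in the fit, 4 and 4 members were called, against 49.5% and 49.4%. SIK1 was higher in β-arrestin1/2 KO than in wildtype cells by 1.11 (adjusted p = 5.8e-07) and SGK1 by 0.51 (adjusted p = 0.0016). SGK3 was lower by -0.60 (adjusted p = 0.024) and SIK3 by -0.34 (adjusted p = 0.040). Of 18 fits that each left out a library, 15 called SGK3, the exceptions being wildtype isoproterenol replicate 1 and β-arrestin1/2 KO isoproterenol replicates 2 and 3 (adjusted p up to 0.099), and 6 called SIK3, with an adjusted p of up to 0.12. In stimulated Gαs KO cells SIK1 was lower than in wildtype cells by -2.66 (adjusted p = 3.7e-11), SGK1 by -1.46 (adjusted p = 7.5e-08) and SGK3 by -0.93 (adjusted p = 0.0015). With wildtype basal replicate 1 left out of the fit, SGK3 had -0.60 (adjusted p = 1.3e-05) and -0.93 (adjusted p = 8.7e-08) in these lines. The SGK3 libraries of stimulated KO cells, 30.7 to 37.4 and 26.8 to 28.2 CPM, all lay below those of stimulated wildtype cells, 49 to 58.1 CPM.

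The reads of SGK3 moved between its transcripts from library to library. SGK3-202 (ENST00000396596) had between 21.3 and 98.2% of the counts of the gene and SGK3-201 between 0 and 66.3%, being under 1 count in 14 of 18 libraries. These shares did not follow the groups: among the β-arrestin1/2 KO libraries, SGK3-201 had 46.2% in basal replicate 2 and 66.3% in isoproterenol replicate 3 and 0% in the other 4. No single SGK3 transcript is therefore described further, and only SGK3-202 was called in any comparison, being lower in stimulated Gαs KO than in stimulated wildtype cells, where 3.94% of all transcripts were called.

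Levels can be set between genes only per length. Per kilobase of transcript, the basal wildtype CPM were 13.3 ± 3.42 for SGK3, 12.9 ± 3.27 for SIK3, 8.85 ± 0.142 for SIK2, 5.01 ± 1.16 for SIK1, 4.6 ± 0.658 for SGK1 and 0.649 ± 0.285 for SGK2. The ranges of SIK1 and SGK1 overlapped. Those of SGK3 and SIK3 overlapped through wildtype basal replicate 1 alone, which had 9.56 for SGK3 and 16.6 for SIK3, while replicates 2 and 3 had 16.3 and 14.1 for SGK3 against 10.9 and 11.1 for SIK3. In stimulated β-arrestin1/2 KO cells SIK1 had 49.5 ± 2.14 CPM per kilobase, the highest of the 6 genes there, followed by SGK1 with 11.7 ± 0.287, and SGK2 was lowest with 0.409 ± 0.163. With the length of the longest annotated transcript, the order in basal wildtype cells was the same, at 10.7, 9.28, 8.7, 4.5, 1.88 and 0.453 CPM per kilobase. In stimulated β-arrestin1/2 KO cells that length kept SIK1 highest, at 46.8, but put SGK1, at 5.13, below SIK2 (8.94), SGK3 (8.24) and SIK3 (6.55), so the place of SGK1 depended on the length used.

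Ordered by level over the groups, SIK1 ran from 225 ± 7.64 CPM in stimulated β-arrestin1/2 KO cells over 104 ± 4.52 in stimulated wildtype cells, 24.5 ± 3.44 in basal β-arrestin1/2 KO, 21.6 ± 2.54 in basal wildtype and 16.6 ± 1.16 in basal Gαs KO to 16.4 ± 0.839 in stimulated Gαs KO cells. The ranges of basal β-arrestin1/2 KO and basal wildtype cells overlapped, as did those of the basal and stimulated Gαs KO cells. SGK1 kept the same order, with 28.1 ± 1.27, 19.7 ± 2.08, 12.6 ± 1.02, 10.3 ± 0.394, 7.49 ± 0.339 and 7.13 ± 0.787 CPM, and only the last neighbours overlapped. The other members did not share that order. SGK3 had both wildtype groups on top, SIK2 had both β-arrestin1/2 KO groups on top, and SIK3 had both β-arrestin1/2 KO groups at the bottom.

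In the wildtype and the β-arrestin1/2 KO line, the kinases and substrates around SIKs and SGKs moved less than SIK1 and SGK1. Of 19 genes for the LKB1 complex, the CRTCs, the class IIa HDACs and the YWHA proteins that hold phosphorylated SIK substrates, HDAC9, a class IIa deacetylase, was the only one called by edgeR's quasi-likelihood test, and only in the β-arrestin1/2 KO line. It had 8.63, 7.27 and 7.04 CPM at basal and 10.1, 12.9 and 12.4 CPM after isoproterenol there, a log2 fold change of 0.63 (adjusted p = 0.047). In wildtype cells its log2 fold change was 0.11 (adjusted p = 0.75), and the difference between these responses was not called (0.52, adjusted p = 0.74). The medians of the list were 0.06 and 0.08 on the log2 scale, beside 0.000 and -0.013 for all genes. Of 11 other LKB1-dependent kinases, 10 genes for PDK1, mTORC2 and AKT, and 11 SGK substrates, 0 were called in either line by edgeR. With 0.464 and 1.11% of all genes called in these responses, counts this low are not a result about the lists. In the Gαs KO line 0 genes of the 5 lists were called, with log2 fold changes of up to 0.87 among the genes for PDK1, mTORC2 and AKT.

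These counts depended on wildtype basal replicate 1. Without it, 8 of the 19 genes around SIKs were called in the β-arrestin1/2 KO response, with 6 rising and 2 falling, while 11.7% of all genes were called. STK11, the gene of LKB1, then fell by 0.39 on the log2 scale (adjusted p = 0.011) and YWHAZ rose by 0.22 (adjusted p = 0.0015). Among the other lists 2, 1, 2 and 2 genes were called in that line, including SNRK, an AMPK-related kinase (0.42, adjusted p = 0.0018), AKT2 (-0.20, adjusted p = 0.009) and NDRG1 (0.26, adjusted p = 0.0035).

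Among 5 genes of the glucocorticoid context of SGK1 (the receptors NR3C1 and NR3C2 and the targets TSC22D3, FKBP5 and PER1), TSC22D3 rose by 0.64 in wildtype (standard error 0.10, adjusted p = 0.0056) and in the β-arrestin1/2 KO line by 0.67 (0.10, adjusted p = 0.0018). TSC22D3 was the only 1 of the 5 that edgeR called in either response, where 0.464 and 1.11% of all genes were called. It had 80.7, 57.9 and 58.2 CPM in basal wildtype cells and 101, 98.5 and 106 CPM after isoproterenol. In Gαs KO cells it had 660.2, 676 and 669.6 CPM at basal and 668, 627 and 694 CPM after isoproterenol, far above the other lines in both conditions and without a response (-0.01). The response of Gαs KO cells differed from the wildtype one by -0.65, which was not called (adjusted p = 0.17), and by -0.82 (adjusted p = 1.1e-05) without wildtype basal replicate 1. Without that library PER1 also rose, by 0.51 in wildtype cells (adjusted p = 0.009) and by 0.55 in β-arrestin1/2 KO cells (adjusted p = 6.8e-04), against backgrounds of 1.08 and 11.7%. FKBP5, NR3C1 and NR3C2 were not called in these responses. With all 18 libraries, 3 of the 5 genes were higher and 1 was lower in basal Gαs KO than in basal wildtype cells, where 31.4% of all genes were called. TSC22D3 was higher by 3.35, NR3C2 by 0.62 and NR3C1 by 0.51, while PER1 was lower by -0.84.

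**Figure D4:**
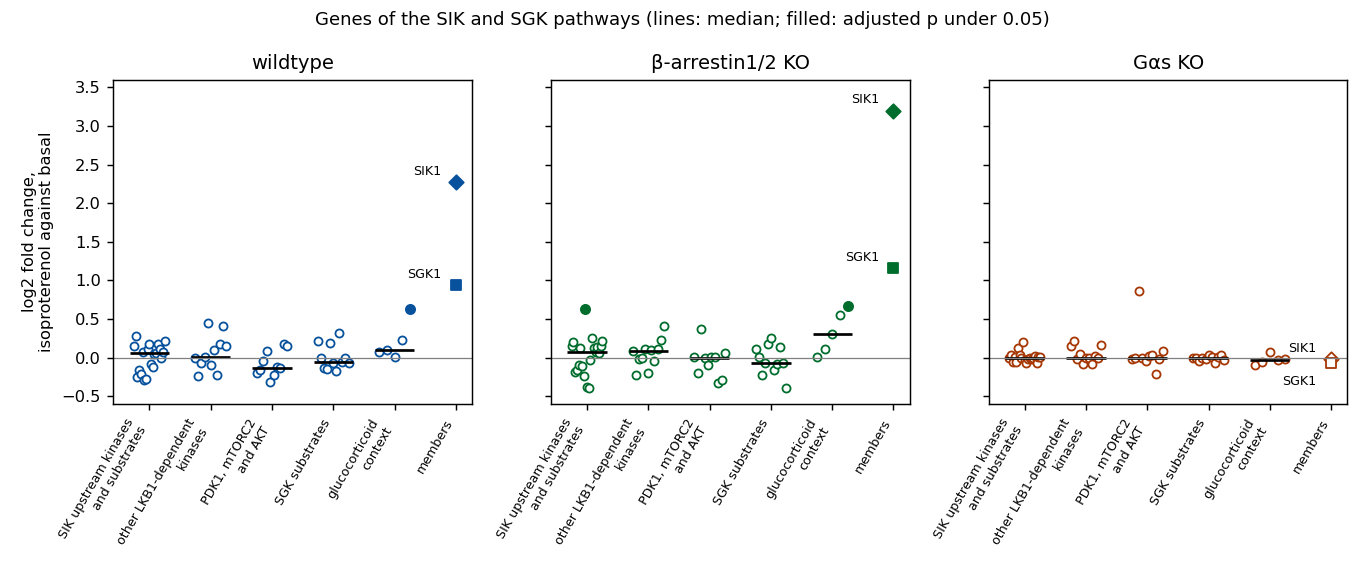
Log2 fold change, isoproterenol against basal, of the genes of the 5 lists and of SIK1 and SGK1 in each line (horizontal lines, list medians; filled points, adjusted p under 0.05). HDAC9 and TSC22D3 are the list genes called, at 0.63 and at 0.64 and 0.67, below SIK1 and SGK1.

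At basal, several pathway genes differed between the lines. The transcript of NDRG1, whose protein SGKs phosphorylate, was lower than in wildtype cells by -1.62 (adjusted p = 1.2e-08) in the β-arrestin1/2 KO line and by -1.27 (adjusted p = 1.3e-07) in the Gαs KO line. FOXO1 was higher by 1.48 (adjusted p = 8.4e-09) and 0.81 (adjusted p = 5.4e-06). HDAC9 was higher by 0.89 (adjusted p = 2.7e-04) and 0.81 (adjusted p = 6.5e-04). Without wildtype basal replicate 1 these differences were -1.46 and -1.11 for NDRG1, 1.39 and 0.72 for FOXO1, and 0.80 and 0.72 for HDAC9, all called. These 3 genes were chosen after their values were seen. Of the 11 SGK substrates, 2 were higher and 1 was lower in the β-arrestin1/2 KO line, and 1 was higher and 4 were lower in the Gαs KO line. Of the 19 genes around SIKs, 4 were higher and 3 lower in the former line, and 5 higher and 1 lower in the latter. Over all genes 33.6 and 31.4% were called in these lines, so the counts are near the background. Leaving out wildtype basal replicate 1 gave 4 higher and 3 lower, and 3 higher and 4 lower, among the substrates, and 7 higher and 6 lower, and 9 higher and 3 lower, among the genes around SIKs, against 46.7 and 45.9% of all genes.

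The genes most like SIK1 across the 18 libraries, by Pearson's r of log2 CPM, were DUSP1 (0.996), ZNF331 (0.989), BTG2 (0.988), TOB1 (0.986) and JUNB (0.985). Those most like SGK1 were GZF1 (0.984), RHOB (0.978), PCK1 (0.975), FOSB (0.974) and SPRY2 (0.972). SIK1 and SGK1 had an r of 0.958 with each other, which placed each at rank 11 of the list of the other. These values describe libraries that share groups, so they mostly restate that the genes were high in the same stimulated libraries. By Spearman's rho, 0 of the 5 genes for SIK1 and 2 of the 5 for SGK1 were among the 5 highest. PCK1, an enzyme of gluconeogenesis, had log2 fold changes of 3.23 in wildtype, 4.92 with β-arrestin1/2 KO and 0.03 with Gαs KO, and DUSP1, a phosphatase of MAP kinases, had 2.52 and 3.55 in the first 2 lines.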

How the data were processed

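The deposited values are expected counts per transcript and library, which Salmon 1.7.0 estimated on GRCh38 and which are not normalized. The authors also named DESeq2 among their tools. The transcript index is not given in the sources used here. All 18 columns were mapped to samples and 0 were left unused.

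Of 184844 transcripts, 161838 matched GENCODE release 29 by identifier (34286 genes), and 92.9 to 93.8% of the counts of a library were kept. Gene sums were rounded. Libraries were scaled by TMM and filtered by group (filterByExpr), and edgeR 4.0.16 (R 4.3.3) fitted a coefficient per group to all 18 libraries, tested with the quasi-likelihood F test. A gene was called at a Benjamini-Hochberg adjusted p under 0.05, adjusted over all genes tested. Standard errors are the log2 fold change divided by the square root of F. DESeq2 1.42.0 was an alternative. An exact permutation test of 3 against 3 cannot go below 0.1, so none is given. The pipeline was also run on simulated counts with changes set in 200 genes, and its outcome is not given here. No simulated library was made to stand apart, so that run does not cover a library like wildtype basal replicate 1.

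The members and the lists were chosen with earlier results of these data known. Genes named are the members, their transcripts with at least 10 counts in a library, GNAS, ARRB1 and ARRB2, the 5 genes most like SIK1 and SGK1, and up to 4 called genes per list. Genes named for their basal values were chosen after these were seen. The promoter sequences are RefSeq's, and SGK2 and SGK3 were not in that table. Alternatives chosen after seeing the data were the transcripts and the lists without wildtype basal replicate 1. The proteins of the members were not compared here.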

Additional observations from a re-analysis of the deposited data

Results flagged for a closer look

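The response to isoproterenol of 2 members differed between cell lines when the difference itself was tested (quasi-likelihood F test in edgeR over all 18 libraries). For SIK1 the log2 difference was 0.93 between β-arrestin1/2 KO and wildtype cells (adjusted p = 0.0095), -2.28 between Gαs KO and wildtype cells (adjusted p = 3.4e-07) and 3.22 between the KO lines (adjusted p = 1.9e-09). For SGK1 it was -1.01 between Gαs KO and wildtype cells (adjusted p = 0.0075) and 1.23 between the KO lines (adjusted p = 4.3e-04). For both genes all 3 stimulated libraries of wildtype and of β-arrestin1/2 KO cells lay above all 3 basal libraries of their line. That order describes the response within a line and not the difference between lines. How many of all genes share it was not counted.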

How the results depend on the processing

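The 66 member results were recomputed under the alternatives, 1726 values in all. Of these, 1655 stayed on the same side of the threshold, 62 lost and 9 gained a call, and none of the called values changed sign (34 values without a call did). Of 471 response values 1 lost its call, and of 471 differences in response 5 did. SIK1 kept its response in every setting, leave-outs included (2.17 to 2.32 in wildtype and 3.09 to 3.29 in β-arrestin1/2 KO cells), and SGK1 in every leave-out (0.86 to 1.01 and 1.12 to 1.23).

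With the fit restricted to the groups in question, SGK1 in wildtype cells had 0.93 (adjusted p = 0.24), SIK1 in β-arrestin1/2 KO minus wildtype 0.94 (adjusted p = 0.11) and SGK1 in Gαs KO minus wildtype -1.01 (adjusted p = 0.10), leaving 1, 0 and 1 members called, and 0 and 0 at basal against wildtype in the β-arrestin1/2 KO and the Gαs KO line. At an adjusted p under 0.01, 1 and 1 members were called in those basal comparisons and 2 with isoproterenol in β-arrestin1/2 KO against wildtype. SIK1 and SIK1B apart gave 0.75 and 1.21 for the difference of β-arrestin1/2 KO from wildtype cells. SGK1 transcripts summed by start gave 1.17 (adjusted p = 0.035) in β-arrestin1/2 KO cells. Leaving out a library gave 1 to 3 members in basal β-arrestin1/2 KO against wildtype, 1 to 4 in basal Gαs KO against wildtype and 2 to 4 with isoproterenol in β-arrestin1/2 KO against wildtype. Without wildtype basal replicate 1, SGK1-201 had 0.93 for wildtype, 1.12 for β-arrestin1/2 KO cells and 1.38 for the difference between the KO lines. The cause was not tested.

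Replicate numbers did not pair the samples. The correlations of same-numbered departures ran from -0.0994 to 0.0626 between basal and isoproterenol libraries of a line. Between basal libraries of a KO line and of wildtype cells they ran from -0.0678 to 0.077. With a replicate block, SGK1 in Gαs KO minus wildtype had -1.01 (adjusted p = 0.088), which left 1 member called, and 48, 119 and 0 genes were called in the responses of wildtype, of β-arrestin1/2 KO and of Gαs KO cells (36 between the responses of the KO lines, against 59), and SGK2 at basal in β-arrestin1/2 KO against wildtype had -1.31 (adjusted p = 0.051). The block ended no other member call.

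Over all genes, DESeq2's Wald test called 182, 280 and 8 genes in the same responses (edgeR 72, 172 and 0), the restricted fit gave 13, 1160 and 0, and leaving out wildtype basal replicate 1 gave 171, 1848 and 0. For the differences of β-arrestin1/2 KO and Gαs KO from wildtype cells and between the KO lines (27, 24 and 59), DESeq2 gave 99, 63 and 123, the restricted fit 10, 15 and 571, and that library left out 1300, 64 and 413. Basal comparisons with wildtype (5216 and 4870) gave 1502 and 1588 in the restricted fit, and without that library the basal and stimulated comparisons gave 7140 to 7807 in place of 4071 to 5216. In the restricted fit the basal comparison of the KO lines gave 7175, and the stimulated comparisons with wildtype 7220 and 7461. The readthrough of C8orf44 and SGK3 was not run, since GENCODE 29 holds no such gene here. The SGK3 sum includes SGK3-207, SGK3-205 and SGK3-210, which start at 66667596, 66667616 and 66712418, upstream of SGK3-202 (66775181). They had at most 1.95, 16.4 and 51.4% of the SGK3 counts in a library. Whether any of these counts come from readthrough was not tested. SGK2, at 7 to 28 counts per library, is limited by depth.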
